A study of Mus musculus with 6 samples.

Results

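Effector regulatory T cells were taken here as the Foxp3-positive T cells of the pancreatic lymph node in which several genes of activated, tissue-homing regulatory cells were detected together. A cell was counted when it had at least 1 UMI (a molecule counted by its unique identifier) of Foxp3 and at least 1 of Cd3d, Cd3e and Cd3g summed, no UMI of Cd8a, Cd8b1 or Cd79a, and at least 2 of the 7 panel genes Icos, Tnfrsf9, Itgae, Klrg1, Ccr8, Tigit and S100a4. The rule found 338 cells among 56310 that passed the limits on UMIs, genes and mitochondrial share, and among 2021 T cells that passed the same gate with any number of panel genes. The other 1683 of these, with 0 or 1 panel gene detected, are called the remaining regulatory T cells.

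The 6 mice carried a floxed gene, 3 with the CD4-Cre transgene (Cre-positive) and 3 without it (Cre-negative). Each library came from the pancreatic lymph node of a separate mouse, and the labels used here give neither strain, sex nor age. CD4-Cre removes floxed DNA in cells that pass through a Cd4-expressing stage, which includes T cells that become CD8 cells, so the deletion is not restricted to regulatory cells, and all 6 mice carried the floxed allele. The Cre-positive mice 1 to 3 gave 49, 62 and 60 effector cells, and the Cre-negative mice 1 to 3 gave 59, 52 and 56. The libraries held 47149014 to 61321105 UMIs, and the UMIs summed over effector cells came to 347872 to 502813 per mouse. Of the effector cells, 8 had a cell barcode that also occurred in another library.

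Regulatory T cells restrain other immune cells and depend on the transcription factor Foxp3. Resting ones circulate through lymphoid organs with the help of the sphingosine phosphate receptor S1pr1. After antigen contact a part of them becomes effector cells, which lower S1pr1 and genes of quiescence, turn on receptors for inflamed tissue and make suppressive or repair products such as interleukin 10. In the pancreatic lymph node they meet antigens drained from the pancreas, and regulatory cells there are known for limiting autoimmunity against the islets.

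The promoters of 3 genes that differed between effector and remaining regulatory T cells are shown because, of the 30 genes of widest change, these have the AP-1 or forkhead letters in the matched window: Ccr4 and S100a11, which were higher in effector cells, and Txnip, which was lower. The commoner NF-kB letters occurred without those also in Gabarapl1, higher in effector cells, and Mgat4a, lower in them, which are not shown. Each sequence covers 250 bases before to 50 bases after the gene's start, 5′ to 3′ on the gene's strand, from RefSeq on GRCm38.p6. Capitals mark matches on either strand to TGANTCA (AP-1), GTAAACA (forkhead factors) or GGGA, any 4 bases and CC (NF-kB).
Ccr4, chr9:114496495-114496794, minus strand: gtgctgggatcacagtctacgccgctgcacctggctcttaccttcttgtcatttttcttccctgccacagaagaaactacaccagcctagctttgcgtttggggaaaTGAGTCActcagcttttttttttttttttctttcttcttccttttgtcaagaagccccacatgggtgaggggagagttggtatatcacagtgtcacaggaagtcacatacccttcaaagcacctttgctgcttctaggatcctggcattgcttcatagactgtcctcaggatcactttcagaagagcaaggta
S100a11, chr3:93520246-93520545, plus strand: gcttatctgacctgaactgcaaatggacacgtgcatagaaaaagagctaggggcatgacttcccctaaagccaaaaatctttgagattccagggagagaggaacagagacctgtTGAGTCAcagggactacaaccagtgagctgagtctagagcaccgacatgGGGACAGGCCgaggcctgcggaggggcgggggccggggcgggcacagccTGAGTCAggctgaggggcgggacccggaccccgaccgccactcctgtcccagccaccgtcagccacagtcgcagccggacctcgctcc
Txnip, chr3:96557707-96558006, plus strand: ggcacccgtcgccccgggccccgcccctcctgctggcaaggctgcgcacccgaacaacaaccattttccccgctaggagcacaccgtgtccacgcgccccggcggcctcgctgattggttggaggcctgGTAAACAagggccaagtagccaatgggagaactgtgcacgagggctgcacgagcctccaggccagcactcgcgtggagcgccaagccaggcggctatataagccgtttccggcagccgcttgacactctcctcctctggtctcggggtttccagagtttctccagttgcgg
The AP-1 letters occurred in 5.80% of the 345 matched promoters of genes higher in effector cells, in 5.50% of the 327 of genes lower in them and in 4.26% of the 5494 of all genes tested. The forkhead letters occurred in 0.290%, 4.28% and 2.62% of the same sets, and the NF-kB letters in 28.4%, 22.6% and 26.1%. Over all 27025 promoters of that length the shares were 7.93% for AP-1, 3.55% for forkhead and 20.5% for NF-kB. A match is a description of these letters in this window and not a binding site.

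The 7 panel genes chose the cells, so their levels are given as a description. Of the effector cells, 251 had 2 panel genes, 69 had 3, 16 had 4 and 2 had 5. Icos, a costimulatory receptor, was detected in 240 of them (71.0%), and Tnfrsf9, the receptor 4-1BB, in 209 (61.8%). S100a4, a calcium-binding protein of migrating cells, was found in 108 (32.0%), Itgae, the integrin chain that binds E-cadherin, in 106 (31.4%), and the chemokine receptor Ccr8 in 83 (24.6%). The inhibitory receptors Tigit and Klrg1 were rare, with 22 (6.51%) and 15 (4.44%) cells. The median depth was 4482 UMIs in gated regulatory cells and 4394 in 10841 B-like cells, in which Icos was detected in 0.221%, Tnfrsf9 in 0.231%, S100a4 in 0.719%, Itgae in 0.249%, Ccr8 in 0, Tigit in 0.0369% and Klrg1 in 0.0277%, and Foxp3 in 0.129%. A single Foxp3 UMI placed 153 effector cells (45.3%) within the gate.

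The panel genes did not mark the same cells. The most frequent combination was Icos with Tnfrsf9 alone, in 65 cells, followed by Icos with S100a4 in 53, Tnfrsf9 with Ccr8 in 33, Tnfrsf9 with Itgae in 31 and Icos with Itgae in 24. Of the 83 cells with Ccr8, 72.3% had Tnfrsf9 and 2.4% had S100a4, while 41.6% of the effector cells without Ccr8 had S100a4. Of the 108 cells with S100a4, 86.1% had Icos and 32.4% had Tnfrsf9, against 63.9% and 75.7% of those without it. The requirement of at least 2 panel genes bears on these shares, since a cell without one gene must hold 2 others, and they were not tested.

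Genes outside the rule split along the same lines. Effector cells with an S100a4 UMI had 174 ± 101 CPM of Ccr2, against 9.9 ± 11.9 CPM in effector cells without one (mean ± SD, n = 6 mice; CPM scale the UMIs of a gene to the library total). Maf, a factor that drives Il10, was at 690 ± 263 CPM with S100a4 and 225 ± 70.8 CPM without it, and S100a11 at 228 ± 119 and 64.8 ± 15.7 CPM. The survival gene Bcl2 went the other way, at 63.1 ± 41.7 CPM with S100a4 and 213 ± 80.5 CPM without it. In each of the 6 mice these 4 genes differed in the stated direction. Cells with Itgae held 1008 ± 161 CPM of Ctla4 and 293 ± 66.3 CPM of Il2ra, the high-affinity interleukin 2 receptor chain, against 638 ± 73.4 and 149 ± 38.1 CPM in effector cells without Itgae, again in all 6 mice. Cells with Ccr8 held 209 ± 112 CPM of Maf and 73.7 ± 53.3 CPM of Ccr6, against 412 ± 123 and 40.3 ± 11.2 CPM in those without Ccr8. S1pr1 was at 159 ± 37.0 CPM with Icos and 40.4 ± 38.8 CPM without it, and at 190 ± 45.3 CPM with S100a4 and 96.5 ± 37.2 CPM without it. Both differences held in all 6 mice. For each of the other panel genes the mean of S1pr1 was lower in cells with the gene, as with Ccr8, at 84.5 ± 58.0 against 136 ± 31.3 CPM. These splits were chosen on a gene of the rule and are a description with no test.

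**Figure D1:**
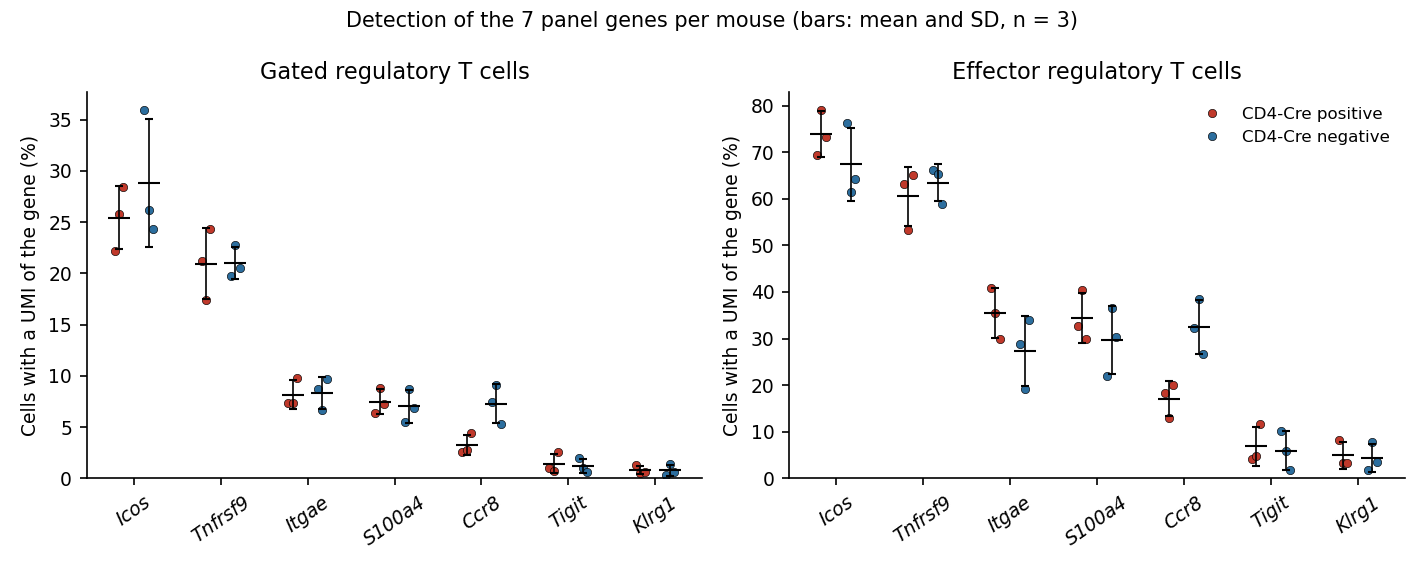
Share of cells with at least 1 UMI of each panel gene, in gated regulatory T cells (left) and effector cells (right), per mouse, with CD4-Cre-positive mice in red to the left of CD4-Cre-negative mice in blue; bars are mean and SD over 3 mice. For Ccr8 the 3 Cre-positive mice sit at 2.55% to 4.42% of regulatory cells, all below the Cre-negative mice at 5.30% to 9.09%, and the other panel genes overlap between the groups.

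The levels of several genes outside the rule, taken from those that differed between effector and remaining cells, changed in steps with the number of panel genes detected, also across the threshold of 2. Others did not go 1 way throughout. Neb was at 10.2 CPM with 0 and 8.0 CPM with 1 panel gene, and Gabarapl1 at 27.7 CPM with 2 and 21.5 CPM with 3 or more. The counts of cells with 0, 1, 2 and 3 or more panel genes were 1046, 637, 251 and 87, and their median depths 4042.5, 4792, 5396 and 6493 UMIs. Klf2, a factor of quiescent lymphocytes, was at 1258 ± 199, 669 ± 136, 487 ± 79.9 and 359 ± 201 CPM in these 4 steps. Txnip, which limits glucose uptake, was at 306 ± 23.7, 196 ± 35.6, 140 ± 52.9 and 86.7 ± 38.6 CPM. Ccr2 was at 0.5 ± 0.7, 11.2 ± 8.6, 40.4 ± 29.4 and 90.7 ± 56.1 CPM, and Il10 at 3.9 ± 8.1, 10.1 ± 6.9, 38.6 ± 22.3 and 52.0 ± 51.3 CPM. Cells with 1 panel gene, just outside the rule, thus lay between those with none and those with 2 for each of these 4 genes. Foxp3 itself was at 404 ± 21.7, 338 ± 40.4, 316 ± 37.5 and 273 ± 85.1 CPM. A gate that asks for 1 Foxp3 UMI admits shallow cells only when they hold one, so these Foxp3 levels depend on depth, and with every cell thinned to 2000 UMIs they were 691 ± 10.7, 696 ± 75.2, 719 ± 158 and 757 ± 205 CPM. The thinned cells were gated on Foxp3 again, so each holds at least 1 of its UMIs and the gate bears on these levels too. In the thinned counts the 4 steps held 904, 300, 77 and 14 cells, Klf2 was at 1257 ± 223, 796 ± 248, 362 ± 169 and 493 ± 764 CPM, and Il10 at 4.3 ± 5.4, 18.9 ± 15.7, 197 ± 143 and 333 ± 408 CPM.

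**Figure D2:**
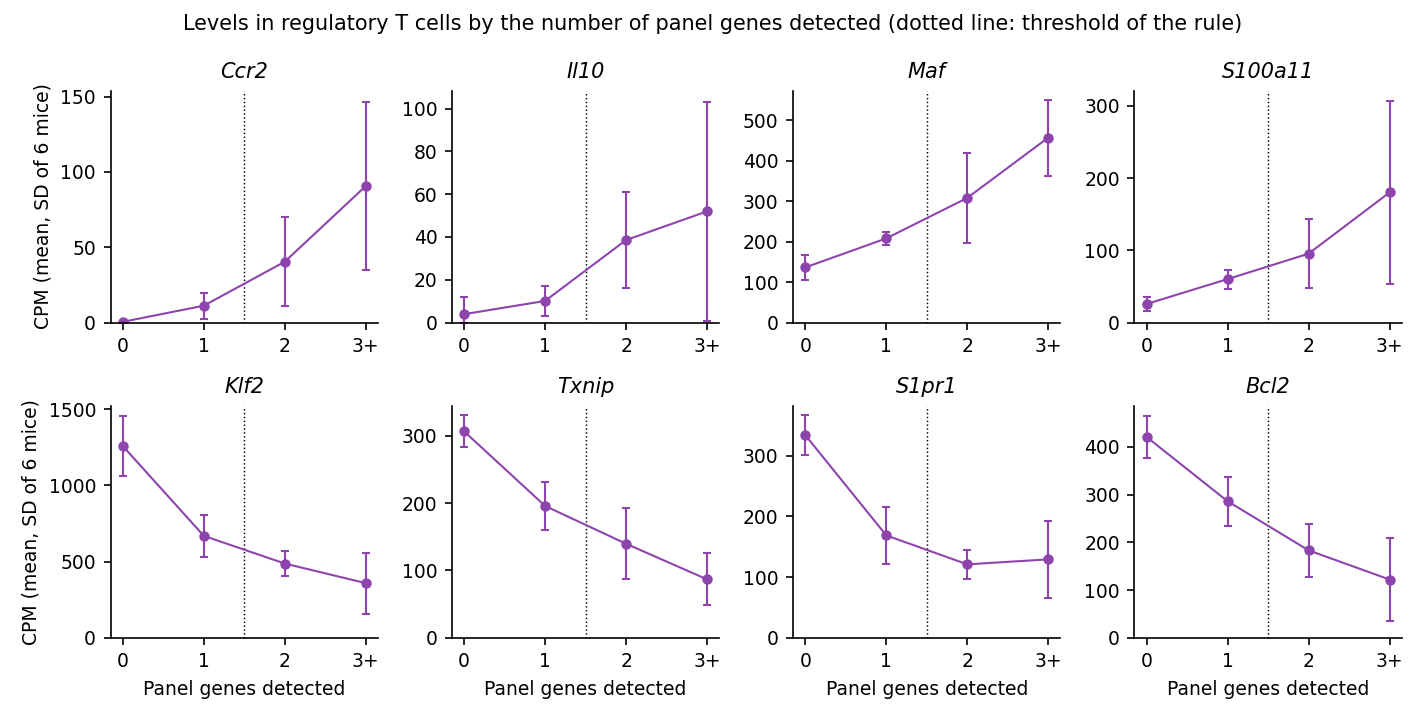
Levels in CPM (mean and SD over 6 mice, lower bars drawn to no less than 0) of 8 genes outside the rule in regulatory T cells with 0, 1, 2 and 3 or more panel genes; the dotted line is the threshold of the rule. Ccr2, Il10, Maf and S100a11 have higher means at each step, while Klf2, Txnip and Bcl2 have lower means at each step and S1pr1 is at 121 CPM with 2 and 129 CPM with 3 or more.

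Against the remaining regulatory T cells of the same mice, effector cells had more RNA of Il10, Areg, several chemokine receptors and Maf, and less of Klf2, S1pr1, Txnip and Bcl2. Of 6923 genes tested, 431 were higher in effector cells (6.23% of genes tested) and 418 lower (6.04%) at an adjusted p of 0.05 in edgeR's quasi-likelihood test on UMI sums, with the mouse as a block. Of genes tested 25.1% had an unadjusted p under 0.05, and for 4.16% the 6 effector sums lay wholly above or below the remaining ones. Values of all 12 sums, 6 effector and 6 remaining, are given below as the lowest, median and highest mouse of each class. Since the classes differ by the 7 panel genes and not by treatment, and effector cells were deeper (5604.5 UMIs at the median), the calls describe what goes with detection of the panel.

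Suppressive and repair products were higher in effector cells. Of 15 genes on this list 8 were tested, 5 rose and none fell, beside 6.23% risen and 6.04% fallen among all genes tested. Their median log2 fold change was 1.26 beside -0.00 for all genes tested. Il10, which encodes the suppressive cytokine interleukin 10, was at 20.4, 45.1 and 61.1 CPM (lowest, median and highest mouse) in effector cells, against 1.12, 6.53 and 14.9 CPM in remaining cells. The classes did not overlap, and the log2 fold change was 2.66 (SE 0.279, adjusted p = 1.73e-08). The 112 effector UMIs of Il10 lay in 30 of the 338 effector cells, 12.5% of them in 1 cell. Areg, the growth factor amphiregulin made by regulatory cells in tissue repair, was at 13.99, 51.5 and 104 CPM in effector cells and 3.41, 12.1 and 25.4 CPM in remaining cells (log2 fold change 2.03, SE 0.288, adjusted p = 5.92e-05). It was higher in effector cells of all 6 mice though the classes overlapped, and 20.6% of its 136 effector UMIs came from 1 cell. Penk, which encodes enkephalin precursors, rose by 1.81 on the log2 scale and in 5 of 6 mice, with 121 of its UMIs in 19 effector cells. Furin, a protease that processes TGF-beta, rose by 0.71, and Nt5e, the ectoenzyme CD73, by 0.49.

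Of 18 chemokine receptors on the list 11 were tested. In effector cells 4 rose and 1 fell, beside 6.23% risen and 6.04% fallen among all genes tested. Ccr2, which guides cells to inflamed tissue, was at 26.0, 63.1 and 66.4 CPM in effector cells and 1.87, 3.58 and 13.6 CPM in remaining cells, with no overlap (log2 fold change 3.33, SE 0.452, adjusted p = 0.00104). Its 143 effector UMIs lay in 42 of the 338 effector cells. Ccr4, a receptor of skin- and tissue-homing T cells, was at 14.6, 22.1 and 38.7 CPM in effector cells against 2.12, 6.55 and 9.53 CPM, and Ccr6, the receptor for Ccl20, at 28.3, 42.0 and 61.9 CPM against 13.1, 18.3 and 20.1 CPM. The classes did not overlap for either receptor. Cxcr3, a receptor of type 1 inflammation, was at 20.9, 54.2 and 85.9 CPM in effector cells and 7.01, 16.9 and 27.6 CPM in remaining cells, higher in 5 of 6 mice (log2 fold change 1.62, adjusted p = 0.0231). The egress receptor S1pr1 was lower, at 92.0, 112 and 177 CPM in effector cells against 220, 271 and 287 CPM in remaining cells. Ccr7, the lymph node homing receptor, had a log2 fold change of -0.43 (SE 0.168, adjusted p = 0.151).

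Genes of naive and quiescent lymphocytes were lower in effector cells. Of 24 on the list 22 were tested, 11 fell and none rose, beside 6.04% fallen and 6.23% risen among all genes tested. All 22 had a log2 fold change below 0 (median -0.68). Klf2, the factor that maintains S1pr1 expression, was at 319, 453 and 507 CPM in effector cells and 844, 1033 and 1156 CPM in remaining cells (log2 fold change -1.24, SE 0.0671, adjusted p = 2.89e-15). Satb1, a chromatin organiser, was at 125, 182 and 236 CPM against 308, 342 and 374 CPM, and the integrin chain Itga6 and the kinase Txk fell by 0.86 and 0.78 on the log2 scale. For each of these genes every effector value lay below every remaining value. Bcl2 was at 106, 131 and 257 CPM in effector cells and 338, 359 and 427 CPM in remaining cells (log2 fold change -1.24, adjusted p = 0.000654). Tcf7, a factor of naive and memory T cells, is on the same list and did not pass the test.

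**Figure D3:**
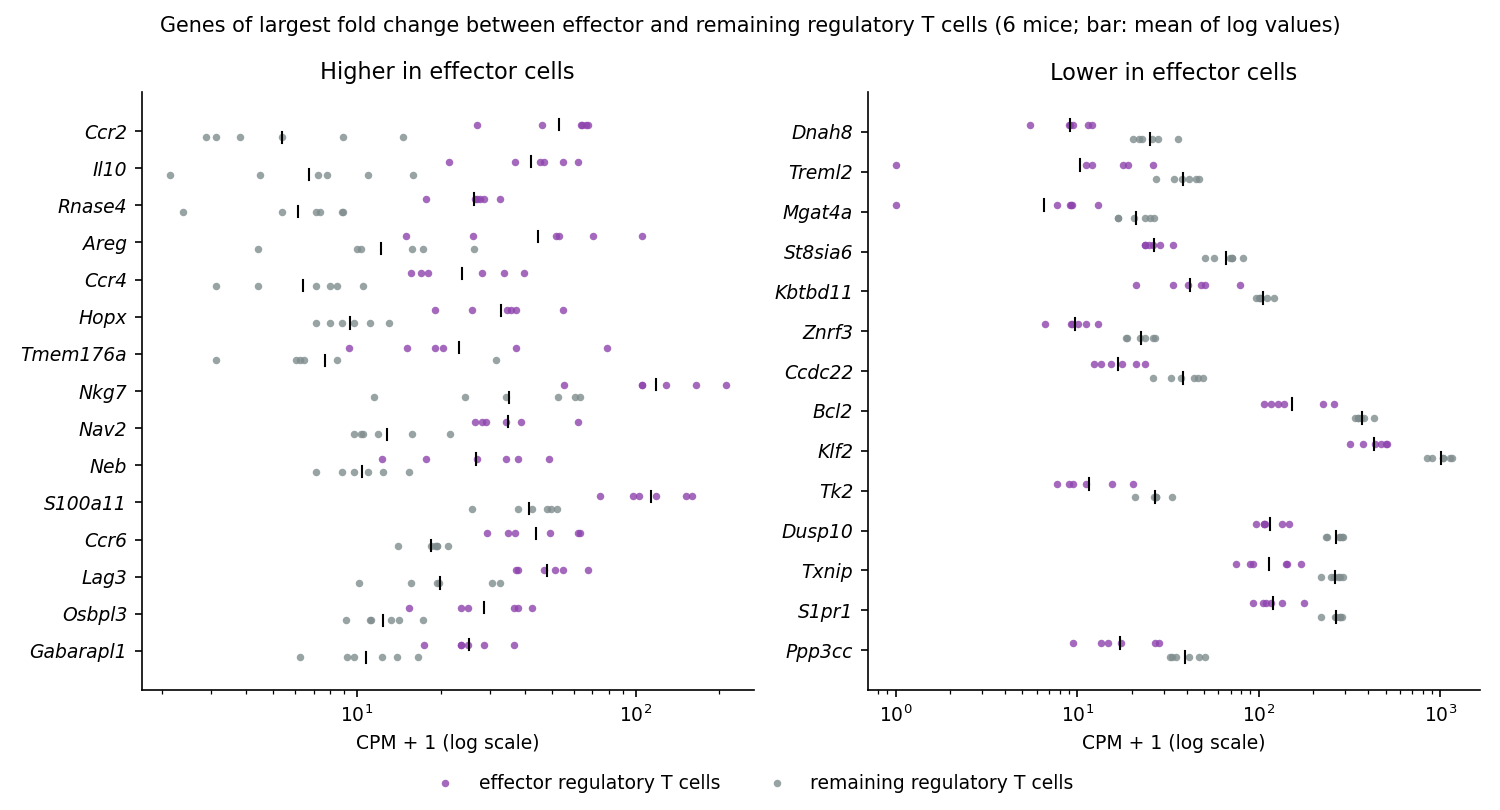
Levels (CPM + 1, log scale) of the 15 genes with the widest rise and 14 of those with the widest fall in effector (purple, upper row of each gene) against remaining regulatory T cells (grey), 1 point per mouse, black bar at the mean of the log values. For 10 of the 15 higher and all 14 lower genes drawn the 6 effector and 6 remaining values do not overlap. Over all genes tested this share is 4.16%, and the drawn genes were chosen for the same direction in all 6 mice.

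Transcription factors of activated T cells that passed the test were higher in effector cells. Of 26 on the list 21 were tested, 9 rose and none fell, beside 6.23% risen and 6.04% fallen among all genes tested. Maf was at 215, 367 and 427 CPM in effector cells against 152, 170 and 210 CPM in remaining cells (log2 fold change 1.01, SE 0.0992, adjusted p = 4.83e-09). Irf4, which is required for effector regulatory cells in mice, was at 52.5, 62.8 and 105 CPM against 23.6, 29.9 and 41.0 CPM (log2 fold change 1.16). Rora rose by 1.10 and Nfil3 by 1.07, both with no overlap between the classes, Bhlhe40 by 0.55 and Hif1a, the hypoxia-inducible factor, by 0.34.

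Adhesion and migration genes rose in 9 of 21 tested members and fell in 1, beside 6.23% risen and 6.04% fallen among all genes tested. S100a11, a calcium-binding protein, was at 73.2, 110 and 158 CPM in effector cells and 24.8, 44.3 and 51.4 CPM in remaining cells (log2 fold change 1.48, SE 0.134, adjusted p = 9.2e-10), and its relative S100a10 was at 653, 1091 and 1278 CPM against 563, 609 and 681 CPM. The memory marker Cd44 rose by 0.66 and the integrin chains Itgb1 and Itgb8 by 0.54 and 1.08, while Selplg, the ligand of P-selectin, fell by 0.53. S100a6, named after its values were seen, had the widest fold change of the list (3.54, SE 0.713, adjusted p = 0.0338) and was at 87.9, 719 and 1046 CPM against 19.3, 54.2 and 105 CPM. In Cre-negative mouse 1 it was lower in effector cells, at 87.9 CPM against 105 CPM.

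Regulatory core genes were mixed between effector and remaining cells, as 5 of 18 tested rose and 2 fell. The counts in this paragraph stand beside 6.23% risen and 6.04% fallen among all genes tested. Capg, an actin-capping protein, was at 100, 134 and 150 CPM in effector cells and 51.1, 64.3 and 76.4 CPM in remaining cells, and Tnfrsf4, the receptor OX40, and Ikzf2, the factor Helios, rose by 0.58 and 0.36 on the log2 scale. Gpr83 was at 44.0, 59.1 and 113 CPM against 88.7, 122 and 147 CPM (log2 fold change -0.86, SE 0.148, adjusted p = 0.000133), and Il2ra fell by 0.30 (adjusted p = 0.0399), each lower in all 6 mice. Ctla4, the inhibitory receptor, had a log2 fold change of 0.18 (adjusted p = 0.0817). With 0, 1, 2 and 3 or more panel genes it was at 574 ± 78.5, 671 ± 133, 699 ± 88.5 and 785 ± 266 CPM. In cells thinned to 2000 UMIs it was at 694 ± 65.7, 947 ± 156, 1139 ± 243 and 1785 ± 747 CPM, with 14 cells in the last step. These steps were not tested. Among costimulatory and inhibitory receptors 5 of 21 tested rose and 1 fell, with Lag3 at 36.2, 48.1 and 66.4 CPM against 9.20, 18.6 and 31.5 CPM and the TNF receptor Tnfrsf1b at 54.3, 64.4 and 96.8 CPM against 26.3, 32.5 and 41.8 CPM. Cytokine receptors went down where they passed: 5 of 19 fell and none rose, among them Il6ra by 0.70, Tgfbr2 by 0.61 and Il4ra by 0.58.

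Within the BCL2 family 5 of 11 tested members rose and 4 fell, beside 6.23% risen and 6.04% fallen among all genes tested. The anti-apoptotic genes moved in opposite directions, with Bcl2 and Mcl1 lower (by 1.24 and 0.35 on the log2 scale) and Bcl2l1 higher by 0.91, and the pro-apoptotic Bcl2l11, which encodes Bim, fell by 0.86. Bcl2a1b and Bcl2a1d also rose, by 0.82 and 1.41, and are near-identical copies whose reads may not be told apart. The replication genes Mcm6, Mcm2 and Mcm5 rose among 18 cell cycle genes tested, by 0.91, 0.90 and 1.14. Of 14 glycolysis genes 4 rose (Pgk1, Pkm, Pgam1 and Gapdh) and none fell, though Pgk1 had a log2 fold change of -0.17 with thinned counts. Of the other lists, antigen signal genes gave 3 rises and 1 fall in 19 tested, and NF-kB feedback 2 and 1 in 19. TGF-beta response gave 2 and 3 in 18, steroid hormone response 1 and 2 in 14, and type I interferon response 2 and 4 in 19. Helper lineage genes gave 2 and 0 in 7. These counts were not tested against the 6.23% risen and 6.04% fallen among all genes tested.

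The other genes of widest rise were Rnase4, a ribonuclease, Hopx, a homeodomain protein known in induced regulatory cells, Tmem176a, Nkg7, a granule protein, Nav2, Neb, Osbpl3 and Gabarapl1, an autophagy protein, with log2 fold changes of 1.24 to 2.17. Those of widest fall were Dnah8, Treml2, Mgat4a, St8sia6, Kbtbd11, the Wnt receptor ligase Znrf3, Ccdc22, Tk2, the phosphatase Dusp10, Txnip and the calcineurin chain Ppp3cc, at -1.56 to -1.14. Rnase4 shares 10860 bases of its annotated span, on the same strand, with Ang, and Ccdc22 overlaps Foxp3 over 1437 bases on the opposite strand, so both values are uncertain. Tmem176a had 40.5% of its 79 effector UMIs in 1 cell, and its log2 fold change was 1.03 without Cre-positive mouse 2, against 1.76 with all mice; it did not pass without that mouse, and not without Cre-positive mouse 3, Cre-negative mouse 1 or Cre-negative mouse 3 either, where its log2 fold change was 1.79, 1.75 and 1.75. Nkg7 (1.64, adjusted p = 0.0265) did not pass without Cre-positive mouse 1 or Cre-negative mouse 1, with log2 fold changes of 1.64 and 1.70.

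**Figure D4:**
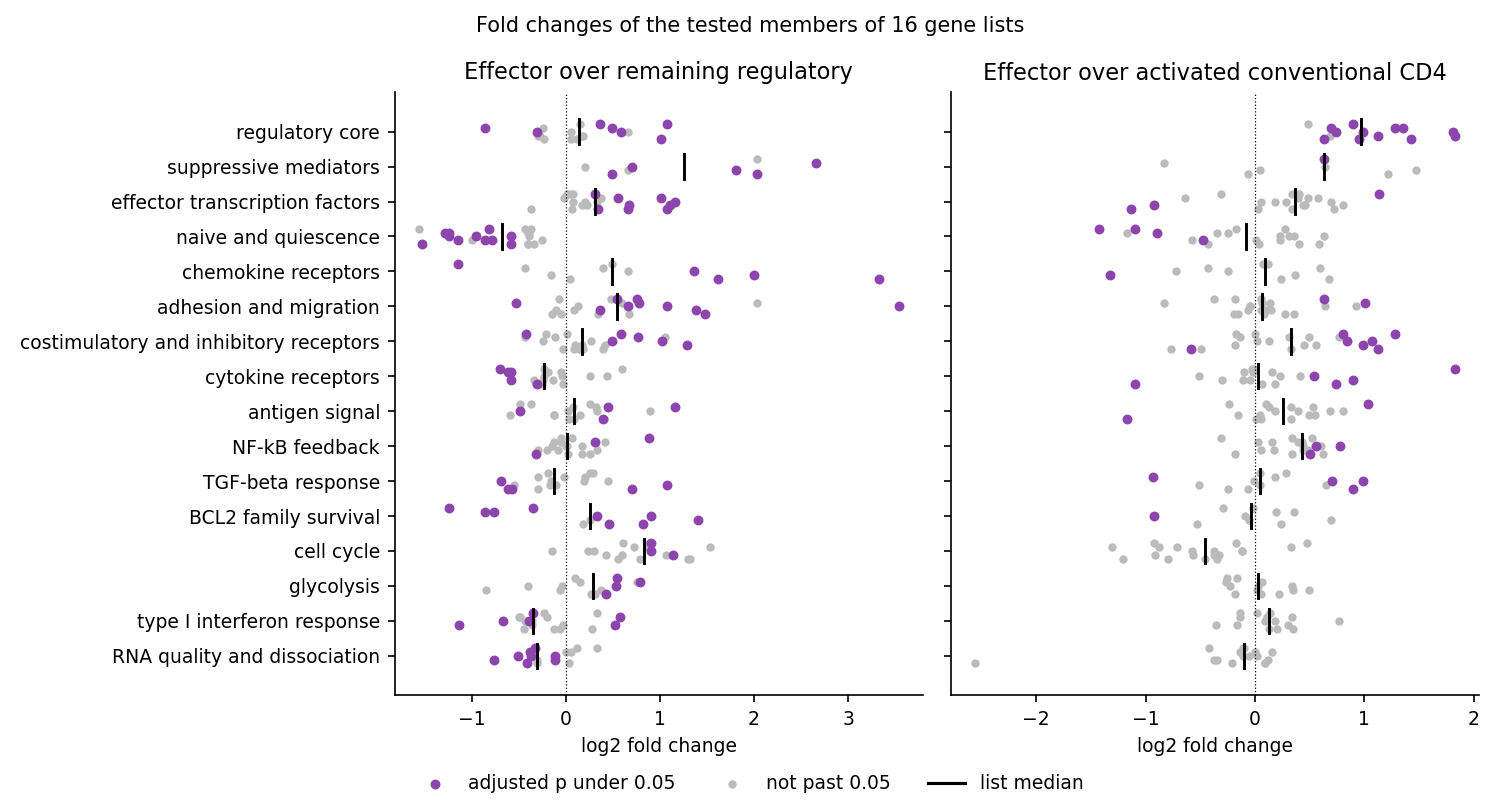
Log2 fold changes of the tested members of the lists, effector over remaining regulatory T cells (left) and effector over activated conventional CD4 T cells (right); purple points pass an adjusted p of 0.05, grey points do not, and black bars are list medians. In the left panel all naive and quiescence genes lie below 0 and the suppressive mediators have a median of 1.26, and in the right panel all tested regulatory core genes lie above 0.

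Markers of other cells and of RNA quality moved with this comparison in part. B cell marker UMIs summed to 534 to 1900 CPM in effector cells and 422 to 1253 CPM in remaining cells, and myeloid markers to 221 to 998 CPM and 202 to 596 CPM. NK and innate markers summed to 74.5 to 1659 CPM in effector and 38.3 to 321 CPM in remaining cells, where 78.6% of the effector UMIs of the chemokine Ccl5 came from 1 cell. The myeloid markers Clec9a and Ccl22, the NK markers Klrb1c, Klre1 and Klra8 and 4 of 7 gamma-delta markers were at 0 in effector cells, and the B cell gene Ms4a1 had 4 UMIs. Other members of these lists were frequent: effector cells held 1004 UMIs of the immunoglobulin chain gene Ighm, in 72.2% of cells, 636 of Cd74 in 30.5%, 124 of Igkc in 19.2%, 584 of Cst3 in 70.4% and 517 of Lyz2 in 7.10%. Of 7 B cell markers tested Ighm was called, at 321, 369 and 476 CPM in effector cells and 229, 266 and 339 CPM in remaining cells (log2 fold change 0.51, adjusted p = 0.000304). Nkg7 was called among the 2 NK and innate markers tested. Of 15 genes of RNA quality and dissociation 8 were lower in effector cells and none higher, beside 6.04% and 6.23% of all genes tested. Among the lower ones were Fos, at 188, 222 and 561 CPM against 242, 308 and 853 CPM, Jun, Malat1 and Junb. The log2 fold change of Junb was 0.0457 with thinned counts. The part of these in the differences above was not tested. With every cell thinned to 2000 UMIs, 44 genes were higher and 92 lower of 2709 tested, and with at least 3 panel genes required 117 were higher and 156 lower.

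Compared with activated conventional CD4 T cells, effector cells had higher levels of most regulatory core genes tested. This checks the regulatory part of the label with genes outside the rule. It cannot check the effector part, since both classes were chosen by the same panel and differ by the Foxp3 UMI. These conventional cells had no Foxp3 UMI, at least 1 of Cd4 and at least 2 of the same panel genes, and numbered 316 (63, 69 and 44 in Cre-positive mice 1 to 3, and 52, 48 and 40 in Cre-negative mice 1 to 3). Of 5264 genes tested 76 were higher in effector cells (1.44% of genes tested) and 45 lower (0.855%), 2.3% in all, in the same edgeR test with the mouse as a block. Of 18 regulatory core genes 14 were tested, 12 rose and none fell, and their median log2 fold change was 0.97 beside -0.01 for all genes tested. Other lists that rose against remaining cells differed little here. Of 10 chemokine receptors tested none rose and 1 fell, and of 20 effector transcription factors 1 rose and 2 fell. Adhesion and migration genes gave 2 rises and no fall in 21 tested, and suppressive mediators 1 and none in 7. Those rises are thus not shown to be particular to effector regulatory cells.

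Ikzf2 was at 795, 892 and 961 CPM in effector cells and 251, 361 and 421 CPM in activated conventional cells, with no overlap (log2 fold change 1.35, SE 0.114, adjusted p = 5.22e-07). Il2ra was at 154, 168 and 245 CPM against 30.2, 50.3 and 71.0 CPM, Gpr83 at 44.3, 59.5 and 115 CPM against 7.76, 16.2 and 34.98 CPM, and Ikzf4, the factor Eos, at 51.6, 98.9 and 111 CPM against 24.3, 34.0 and 48.8 CPM. Tnfrsf4 was at 436, 589 and 695 CPM in effector cells and 151, 243 and 397 CPM in activated conventional cells. Tnfrsf18, the receptor GITR, rose by 0.99, and Nt5e by 0.63, on the log2 scale. Il10 had a log2 fold change of 1.47 against these cells and did not pass (SE 0.526, adjusted p = 0.288).

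Of the 15 named genes lower in effector cells 6 did not overlap between the classes, against 13 of the 15 higher ones. These genes were chosen for passing in the same direction in all 6 mice, and over all genes tested 1.52% did not overlap. Cd40lg, the ligand by which helper T cells stimulate B cells, was at 12.1, 19.4 and 34.1 CPM in effector cells and 43.0, 83.0 and 112 CPM in activated conventional cells (log2 fold change -1.88, SE 0.277, adjusted p = 0.000578). Pde3b, a cyclic nucleotide phosphodiesterase repressed by Foxp3 in mice, was at 0, 6.43 and 8.52 CPM against 24.4, 33.8 and 48.8 CPM. Il7r, the interleukin 7 receptor chain, was at 87.8, 123 and 168 CPM against 159, 314 and 415 CPM, Tcf7 at 105, 158 and 283 CPM against 293, 304 and 400 CPM, and Id2 at 107, 132 and 156 CPM against 216, 287 and 350 CPM. Of these Cd40lg, Pde3b, Tcf7 and Id2 did not overlap between the classes. Genes that respond to NF-kB gave 3 rises (Nfkbia, Tnfaip3 and Traf1) and no fall in 19 tested, beside 1.44% risen and 0.855% fallen among all genes tested. The log2 fold change of Tnfaip3 was -0.0758 with thinned counts. The kinase gene Pim1 rose by 1.03.

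The fallen genes included Fcer1g, Tyrobp and Cst3, which are myeloid markers, of which Cst3 had a log2 fold change of 0.00806 with at least 3 panel genes. All 4 tested myeloid and dendritic markers had a log2 fold change below 0 and 3 of them fell, and the summed markers of this list reached 221 to 998 CPM in effector cells and 530 to 3557 CPM in activated conventional cells. The B cell markers summed to 534 to 1900 CPM and 1790 to 4760 CPM in the same classes. The activated conventional cells were deeper than the effector cells in every mouse. Their median was 11817.5 UMIs in Cre-negative mouse 1 and 5270 to 9027.5 elsewhere, against 4552 to 6310.5 per mouse in effector cells. The part of depth and of other cell types in the calls was not tested. The number of calls was 69 without Cre-negative mouse 3, 68 without Cre-positive mouse 2, and 0 with at least 3 panel genes (1212 genes tested, 42 at an unadjusted p under 0.05) or thinned counts (347 genes tested, 18 under 0.05). With a Cd4 UMI required of effector cells too, 27 genes were higher and 14 lower.

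The genotype comparison asks whether effector cells of Cre-positive mice differ from those of Cre-negative mice. Effector cells made up 12.5%, 15.7% and 18.9% of gated regulatory T cells in Cre-positive mice 1 to 3 and 19.1%, 18.2% and 17.4% in Cre-negative mice 1 to 3. The means were 15.7% ± 3.21 in Cre-positive mice and 18.2% ± 0.826 in Cre-negative mice (SD, n = 3), the groups overlapped, and an exact two-sided permutation test gave p = 0.3, where 3 mice against 3 cannot go below 0.1. As a share of T cells they were 0.855% ± 0.137 in Cre-positive mice and 0.955% ± 0.185 in Cre-negative mice (exact permutation p = 0.6). With a Cd4 UMI required the share of regulatory cells was 19.1% ± 4.91 in Cre-positive mice and 24.2% ± 1.404 in Cre-negative mice, and with thinned counts 6.06% ± 0.370 and 8.12% ± 0.575, each without overlap and at the smallest exact p of 0.1.

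Of the panel genes Ccr8 had the widest difference in detection between the genotypes before thinning. It was detected in 2.55%, 2.78% and 4.42% of regulatory T cells in Cre-positive mice and in 7.44%, 9.09% and 5.30% in Cre-negative mice, with no overlap (exact permutation p = 0.1, the smallest possible, and 0.7 adjusted over the 7 panel genes). Within effector cells it was detected in 17.1% ± 3.72 of cells in Cre-positive mice and 32.5% ± 5.84 in Cre-negative mice, with 34 UMIs in 171 cells of the Cre-positive group and 84 in 167 cells of the Cre-negative group. With cells thinned to 2000 UMIs the shares of regulatory cells with Ccr8 were 1.73% ± 0.298 in Cre-positive mice and 2.39% ± 1.26 in Cre-negative mice, which overlapped (exact permutation p = 0.4). In thinned cells the difference was wider for Itgae, at 4.09% ± 1.88 in Cre-positive mice and 6.52% ± 2.18 in Cre-negative mice, and for Tnfrsf9, Icos and Tigit. The other 6 panel genes had exact permutation p-values of 0.6 to 1 before thinning and 0.2 to 0.6 after it, and overlapped between the groups before thinning.

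No gene passed between the genotypes within effector cells. Of 5413 genes tested 0 were called in either direction (0% of genes tested) by edgeR's quasi-likelihood test and 0 by DESeq2, while 249 (4.6%) had an unadjusted p under 0.05 in edgeR and 80 in DESeq2, and for 9.46% the Cre-positive mice lay wholly above or below the Cre-negative ones. In simulated counts of this size with 5138 genes the changed genes were drawn from those at 20 CPM or more. Apart from that change, each gene had the same mean level in every mouse, scaled to depth. The test recovered 10.9% of genes changed 1.5-fold, 51.6% of those changed 2-fold and 98.2% of those changed 4-fold. Changes below 2-fold were thus often not detectable at this depth, for genes at that level. Unchanged genes made up 12 of the simulated calls (11.2% of them, at a threshold of 0.05).

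The 10 genes of smallest p are given with their values, and none passed (adjusted p = 0.998 for each in edgeR). Txnip was at 75.3, 93.9 and 89.5 CPM in Cre-positive mice and 174, 146 and 144 CPM in Cre-negative mice (log2 fold change -0.84, SE 0.208). 1190007I07Rik was at 52.1, 43.8 and 50.8 CPM in Cre-positive mice and 17.2, 23.2 and 17.0 CPM in Cre-negative mice (1.33, SE 0.348). Abhd2, a lipase, was at 8.7, 14.6 and 10.2 CPM in Cre-positive mice and 42.9, 23.2 and 42.5 CPM in Cre-negative mice (-1.64, SE 0.437). The proteasome genes Psmd6 and Psmb9 were both numerically higher in Cre-positive mice. Psmb9, a subunit of the immunoproteasome, was at 284, 276 and 283 CPM in Cre-positive mice and 159, 206 and 184 CPM in Cre-negative mice (0.62, SE 0.182). Psmd6 averaged 120 ± 14.97 CPM in Cre-positive mice and 69.1 ± 6.11 CPM in Cre-negative mice. The other 5 were Glipr1 and Gimap7, with higher means in Cre-positive mice, and Crebzf, Coro2a and Panx1, with lower means in them. The groups did not overlap for any of the 10, which were chosen by p on these same mice. Over all genes tested 9.46% did not overlap. Gimap7 shares its annotated span and strand with Gm28053 and is uncertain.

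**Figure D5:**
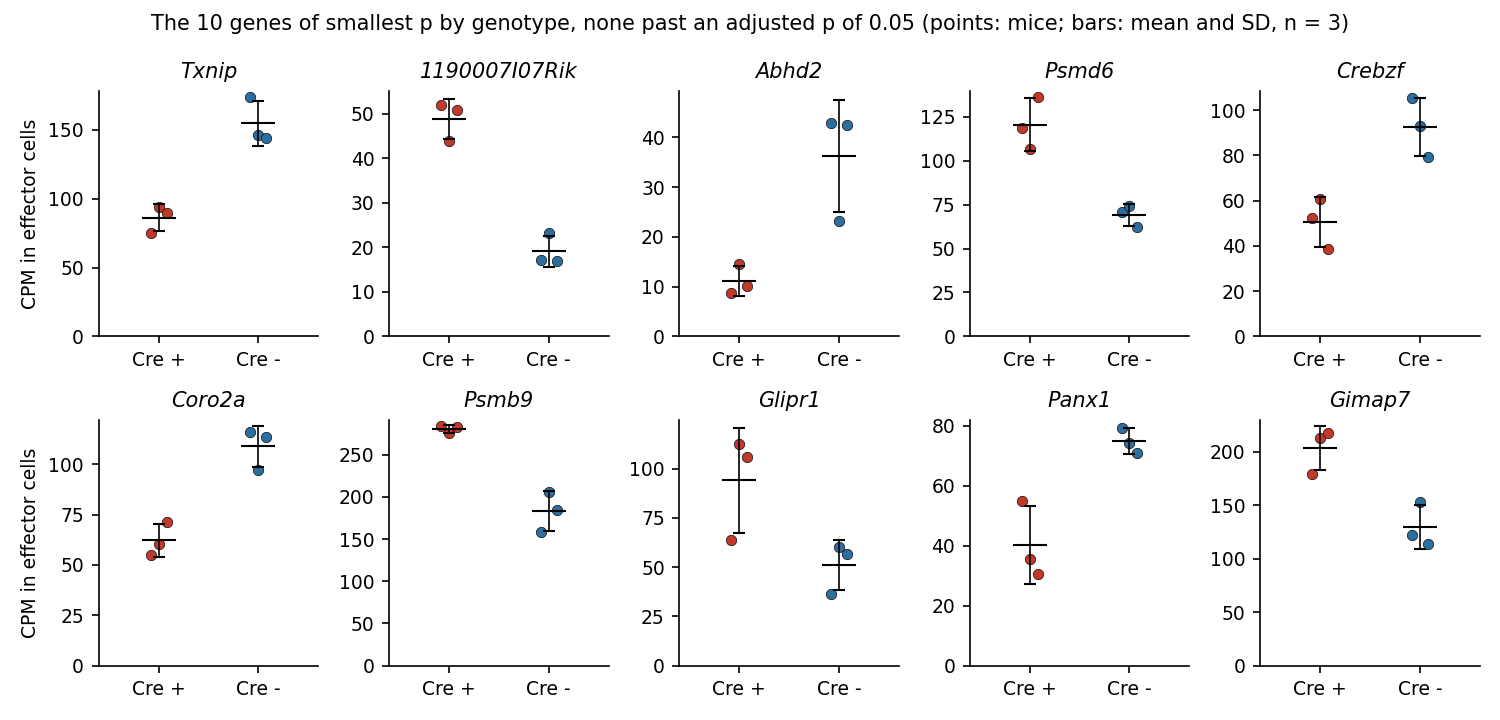
CPM per mouse in effector cells of the 10 genes of smallest p, CD4-Cre-positive mice (red) left of CD4-Cre-negative mice (blue), with mean and SD over 3 mice; none passed an adjusted p of 0.05. Txnip lies between 75.3 and 93.9 CPM in Cre-positive mice and between 144 and 174 CPM in Cre-negative mice.

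The lists gave no called member between the genotypes. Naive and quiescence genes had the widest median among the T cell lists other than helper lineage genes, -0.35 with 18 of 20 tested below 0 and 8 at an unadjusted p under 0.05, beside -0.00 for all genes tested. Regulatory core genes had a median of -0.10 with 6 of 17 above 0, effector transcription factors -0.14 with 7 of 20 above 0, suppressive mediators 0.25 with 5 of 8 above 0, and adhesion and migration genes 0.19 with 16 of 22 above 0. Of the NF-kB feedback list 10 of 19 were above 0, and its member Tnfaip3, the NF-kB inhibitor A20, was at 475 ± 68.2 CPM in Cre-positive mice and 698 ± 132 CPM in Cre-negative mice (log2 fold change -0.55, SE 0.173, adjusted p = 0.998). The TGF-beta response gene Pmepa1 was at 104 ± 16.3 CPM in Cre-positive mice and 104 ± 14.4 CPM in Cre-negative mice.

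Gh, which encodes growth hormone, had 2, 5 and 5 UMIs in effector cells of Cre-positive mice 1 to 3 and 0 in those of each Cre-negative mouse. Pooled over mice, the 12 Gh UMIs of the Cre-positive group came to 9.10 CPM. This was 3.78-fold the 2.41 CPM that 3 UMIs would give in the Cre-negative group. The ratio leaves out the spread between mice and the error of the 12 UMIs, so it is no lower bound. The remaining regulatory cells had 14, 5 and 13 Gh UMIs in Cre-positive mice and 0 in each Cre-negative mouse. Lxn, an inhibitor of carboxypeptidases on chromosome 3, was, on CPM of the plain library total, at 25.9, 21.4 and 23.9 CPM in effector cells of Cre-positive mice and 0, 18.4 and 2.81 CPM in those of Cre-negative mice. Also on that chromosome, Trim59 and Tiparp, were at 94.0 ± 3.91 and 34.0 ± 13.9 CPM in Cre-positive mice and 99.7 ± 9.28 and 26.0 ± 5.67 CPM in Cre-negative mice.

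B cell markers had a median log2 fold change of 2.61 between the genotypes, with 5 of 6 tested above 0 and none called, and most of their class II UMIs came from few cells of the Cre-positive group. UMIs of H2-Aa, H2-Ab1, H2-Eb1 and Cd74 summed to 59, 662 and 651 in Cre-positive mice 1 to 3 and to 57, 61 and 68 in Cre-negative mice 1 to 3. In Cre-positive mouse 2, 627 of them lay in 3 cells and 518 in 1, and in Cre-positive mouse 3, 592 lay in 2 cells and 581 in 1. Of these 5 cells 4 were called doublets. Without Cre-positive mouse 1 the 4 genes were called higher in Cre-positive mice and were the only calls (4 genes).

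The genotype effect was also compared between effector and remaining regulatory T cells of the same mice. Of 6923 genes 0 passed the interaction test in edgeR (0% in either direction) and 0 in DESeq2, and 255 (3.68%) had an unadjusted p under 0.05 in edgeR and 35 in DESeq2. The smallest p belonged to Gimap7, a GTPase of lymphocyte survival, with an interaction of 0.95 on the log2 scale (SE 0.217, adjusted p = 0.992 in edgeR). Its effector levels were 175, 209 and 214 CPM in Cre-positive mice and 119, 149 and 111 CPM in Cre-negative mice, and its levels in remaining cells 175, 134 and 147 CPM in Cre-positive mice and 188, 200 and 160 CPM in Cre-negative mice. Lef1, a factor of naive T cells, was at 113, 96.1 and 130 CPM in effector cells of Cre-positive mice and 176, 138 and 196 CPM in those of Cre-negative mice, and at 229, 287 and 256 CPM and 242, 213 and 242 CPM in remaining cells (interaction -0.73, SE 0.213, adjusted p = 1.00). Kbtbd11, at an interaction of -1.11, was at 39.6, 32.7 and 19.98 CPM in effector cells of Cre-positive and 77.4, 49.8 and 47.0 CPM in those of Cre-negative mice. In simulated counts with 6753 genes the interaction test recovered 28.4% of those changed 2-fold, which were again drawn from genes at 20 CPM or more. Differences of that size between the classes were thus mostly not detectable.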

How the data were processed

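Single cells from pancreatic lymph nodes of 6 mice, 3 CD4-Cre-positive and 3 CD4-Cre-negative, were profiled by droplet RNA sequencing. The deposited files hold UMI counts per gene and barcode for 31053 features, which the authors obtained using Cell Ranger 6.1.2 and mm10 per the submitters' processing notes; intervals and tests start from these counts. Barcodes with at least 500 UMIs, at least 300 genes and at most 10% mitochondrial UMIs were kept. Counts were summed per mouse and class, and tested with edgeR 4.0.16 in R 4.3.3 (TMM scaling, filterByExpr, robust quasi-likelihood test, Benjamini-Hochberg adjustment, threshold 0.05), with the mouse as a block between classes. The 14 genes of the gating rule stayed in library totals and out of the fits, as did Cd4 against activated conventional cells. CPM are scaled within each comparison, so a gene's value differs slightly between comparisons. Shares were compared by exact permutation over mice. The tests were checked on simulated counts. Doublets were called with Scrublet in scanpy 1.11.5 at a rate that grows with the barcodes loaded; they were kept, and removed in an alternative. DESeq2 1.42.0, other gates and counts thinned to 2000 UMIs per cell were alternatives. Limits of 4000 UMIs per cell and the removal of cells with 10 or more class II UMIs were chosen after seeing the data.

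Named genes are the 15 risen and 15 fallen genes of widest fold change that passed in the same direction in all 6 mice with at least 20 CPM, or the 10 of smallest p where fewer passed, plus members of 22 gene lists. Ccr7, Ctla4 and Tcf7 against remaining cells and S100a6 were named after their values were seen. The members and lists were chosen with earlier results of these data known. The labels' protocols give separate mice, which makes the mouse the replicate. The targeted gene and some named genes are not reported here. Replicate numbers do not pair the mice.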

Additional observations from a re-analysis of the deposited data

Results flagged for a closer look

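Among the genes that differed between effector and remaining regulatory T cells, 3 had 1 mouse apart from the other 5 in the difference of log2(CPM + 1), effector minus remaining. Treml2 was at -5.24 in Cre-positive mouse 3, where the other mice ranged from -2.01 to -0.60. Mgat4a was at -4.73 in Cre-positive mouse 1, where the others ranged from -1.42 to -0.85. In these 2 mice the effector cells held no UMI of the gene in question, so the size of the difference is set by the added 1; Treml2 had 35 and Mgat4a 20 effector UMIs in all mice. Znrf3 was at -0.53 in Cre-positive mouse 3, where the others ranged from -1.47 to -1.25. All 3 genes were lower in effector cells of every mouse, and some such flags arise by chance among the 30 genes looked at.

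For 3 genes the difference between effector and remaining cells had opposite signs in the 2 genotypes. The interaction of Gimap7 was 0.95 on the log2 scale, with 0.39 in Cre-positive mice and -0.53 in Cre-negative mice (edgeR, adjusted p = 0.992). That of the immunoproteasome gene Psmb9 was 0.70, with 0.39 in Cre-positive mice and -0.29 in Cre-negative mice (edgeR, adjusted p = 1.00). That of Gtf2e2, a subunit of a general transcription factor, was 1.4, with 0.60 in Cre-positive mice and -0.75 in Cre-negative mice (edgeR, adjusted p = 1.00). None passed the adjusted threshold.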

How the results depend on the processing

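Between effector and remaining cells 849 genes were called (50.8% of them higher). DESeq2 called 463 genes (451 of them among the 849), the gate of at least 3 panel genes 273 (117 higher, 156 lower, 244 shared), counts thinned to 2000 UMIs 136 (32.4% higher, 113 shared) and a required Cd4 UMI 483 (41.4% higher, 454 shared). Without the low-count filter 423 were higher and 624 lower (40.4% higher, 736 shared). Leaving out 1 mouse gave 579 to 808 calls. The 30 named genes passed in the same direction for 18 of 30 in DESeq2, 21 of 29 with at least 3 panel genes, 17 of 18 with Cd4 required, 8 of 9 with thinned counts, and 28 in every fit with 1 mouse left out. Against activated conventional cells the 121 calls became 66 in DESeq2, 291 without the filter (134 higher, 157 lower), 49 at 5% mitochondrial UMIs, 41 with Cd4 required, 0 with at least 3 panel genes and 0 with thinned counts (fewer genes tested in both), and 68 to 116 with 1 mouse left out. Of the 30 genes named there, those that passed in the same direction were 25 of 30 in DESeq2, 13 of 21 at 5% mitochondrial UMIs, 15 of 23 with Cd4 required, 0 of 2 with at least 3 panel genes, 0 of 2 with thinned counts, and 22 in every fit with 1 mouse left out.

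Between genotypes, 0 calls became 7 without the filter (Il1b, Ifitm6, Marcks, Gzmb, Nrgn, H2-M2 and C3) and 0 to 4 with 1 mouse left out: Tyms and Gapdh without Cre-negative mouse 2, and H2-Ab1, H2-Aa, H2-Eb1 and Cd74 without Cre-positive mouse 1. The interaction gave 2 without the filter (Hbb-bs and Hba-a1), 2 with thinned counts (Zfp36 and Egr1) and 0 to 3 with 1 mouse left out: Ube2c without Cre-negative mouse 2, and Gimap7, H2-Aa and H2-Eb1 without Cre-positive mouse 1. Same-numbered mice did not deviate together (correlations of -0.121, -0.0353 and 0.0893 over 2887 genes); with the replicate number as a block 1 gene was called (H2-Eb1), and the exact p of the shares was 0.5 of regulatory and 0.75 of T cells.

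The difference in the share of regulatory cells, Cre-positive minus Cre-negative, ranged from -4.16 to -0.948 percentage points with 1 mouse left out, and that of T cells from -0.175 to 0.00535, reversed without Cre-negative mouse 1. Log2 fold changes turned round with at least 3 panel genes for Coro2a between genotypes (0.25), Nr4a3 against remaining cells (-0.19) and Cst3 against activated conventional cells (0.00806), and with thinned counts for Cd81 (-0.22), Dusp1 (0.0386), Ier2 (0.0617), Junb (0.0457) and Pgk1 (-0.17) against remaining and Tnfaip3 (-0.0758) against activated conventional cells; the cause was not tested. Values that kept their direction and were no longer past the threshold numbered 213 of those against remaining and 204 of those against activated conventional cells, each gene counted once per setting.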
